A study of Mus musculus with 4 samples.

Results

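The genes described here are 35 mouse genes for molecular chaperones and for the unfolded protein response (UPR), out of 11251 genes with a listed transcript in at least 1 library. They were chosen by name from textbook knowledge of the pathway. They form 2 groups that are kept apart throughout. The endoplasmic reticulum (ER) group holds 22 genes: chaperones of the ER lumen, protein disulfide isomerases, the 3 stress sensors of the ER membrane and the transcription factors and targets downstream of them. The other group holds 13 genes, of which 10 encode chaperones or their regulators in the cytosol and 3 encode chaperones of the mitochondrion. A transcript was given to a gene when it shared at least 1 annotated intron with it or when at least 50% of its exon bases lay in the gene's exons.

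RNAseq was made from tumors of the 4T1 mouse mammary carcinoma line grown in the mammary fat pad of female Foxp3+EGFP Balb/c mice, inoculated at 8 weeks of age. In these mice the *Foxp3* promoter drives EGFP, which marks T regulatory cells (Tregs). The mice received for 12 days either a splice modulating oligomer against the long form of the prolactin receptor (LFPRLR SMO) or a control oligomer with no target in the mouse (Control SMO). The study's methods give the oligomers to the mice by minipump, whereas the labels word the injected 4T1 cells as the treated material. Both treatments were applied to tumor-bearing mice, so a tumor without any oligomer was not among the samples. Whole tumor RNA of 6 mice was pooled into 1 library per treatment, and tumor Tregs sorted by EGFP from further mice into 1 library per treatment. With 1 pool per treatment there is no spread between replicates, so no test, SD or p-value can be given, and each ratio below describes 2 libraries and not the 2 treatments.

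In whole tumor, transcripts were listed for 34 of the 35 genes with Control SMO and for all 35 with LFPRLR SMO. The 2 deposited tumor Treg files held the same values in 4838 of 4838 transcripts, and the headers of both name the control alignment. They were therefore counted once, as tumor Tregs with Control SMO, and no treatment comparison was made in Tregs. That file listed 23 of the 35 genes, 15 of the ER group and 8 of the other. *Prlr*, the gene the oligomer targets, had no listed transcript in any of the 3 libraries, so the treatment labels could not be checked by it. The sorted Treg library listed 0 of 13 T cell markers, *Foxp3*, *Cd4* and *Il2ra* included, and 12 of 12 markers of monocytes and macrophages, whose exon-weighted levels summed to 415 there. Both whole tumor libraries also listed 0 of the 13 T cell markers and 12 of the 12 macrophage markers, so these counts do not set the sorted library apart from them. The label of the sorted library was therefore not borne out by the defining markers. It is called the library labelled tumor Tregs below.

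Chaperones bind unfolded stretches of other proteins and let them fold instead of aggregating. In the ER, *Hspa5* (BiP) also holds the sensors *Ern1* (IRE1), *Eif2ak3* (PERK) and *Atf6* inactive. When unfolded protein draws BiP away, the sensors start the UPR, in which IRE1 cuts a short stretch out of *Xbp1* mRNA, PERK phosphorylates the initiation factor eIF2alpha and favours translation of ATF4, and ATF6 is cleaved to a transcription factor. In the cytosol the heat shock factor HSF1 has the corresponding role for HSP70 and HSP90 genes. Secretory and tumor cells, which make much protein, commonly carry high levels of both sets.

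Both responses are known to act through short motifs near the start sites of their target genes, and 12 of the members held one in the windows searched. The windows searched were RefSeq promoters (GRCm38.p6), from 250 bases before to 50 after each start site, and 27 of the 35 genes had one, 19 of the ER group and 8 of the other. On both strands, the ER stress response element (ERSE, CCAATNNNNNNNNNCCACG) was found in 7 of the 19 ER promoters, those of *Hspa5*, *Hsp90b1*, *Calr*, *Canx*, *Dnajc3*, *Creld2* and *Pdia6*, and in 0 of the 8 others. Of 32851 mouse promoters 0.119% held it. The second form (ERSE-II, ATTGGNCCACG) was found at *Dnajb11* and *Herpud1* and in 0.0365% of promoters. The heat shock element (HSE, GAANNTTCNNGAA) was found in 3 of the 8 cytosolic and mitochondrial promoters, those of *Hsph1*, *Hspd1* and *Hspe1*, in 0 of the 19 ER ones, and in 0.603% of all. Matches that overlap each other were each counted. The matches of *Dnajb11* and *Hsph1* lay downstream of the start site and the others upstream. A match describes the letters and is not evidence that a factor was bound.

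Shown here are the 250 bases ending at base 250 of the window, so up to the start site, for 2 abundant ER chaperone genes and for the mitochondrial gene with the lowest ratio between the whole tumor libraries. Capitals mark the motif: the ERSE of *Hspa5* at −65 to −47 from the start site, those of *Hsp90b1* at −212 to −194 and, on the other strand, at −107 to −89, and 2 overlapping HSE matches of *Hspe1* that together reach from −89 to −72.
Hspa5, chr2:34771840-34772089, plus strand: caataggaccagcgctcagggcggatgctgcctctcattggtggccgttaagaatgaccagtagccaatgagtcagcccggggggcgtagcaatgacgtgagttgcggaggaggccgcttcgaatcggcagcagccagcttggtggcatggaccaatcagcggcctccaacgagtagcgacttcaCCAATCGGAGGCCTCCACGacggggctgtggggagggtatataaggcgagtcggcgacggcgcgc
Hsp90b1, chr10:86705445-86705694, minus strand: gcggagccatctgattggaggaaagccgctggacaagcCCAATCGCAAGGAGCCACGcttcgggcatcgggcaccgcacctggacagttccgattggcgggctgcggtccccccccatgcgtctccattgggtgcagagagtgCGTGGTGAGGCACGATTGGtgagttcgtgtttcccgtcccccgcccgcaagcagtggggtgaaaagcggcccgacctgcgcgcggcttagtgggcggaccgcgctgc
Hspe1, chr1:55087898-55088147, plus strand: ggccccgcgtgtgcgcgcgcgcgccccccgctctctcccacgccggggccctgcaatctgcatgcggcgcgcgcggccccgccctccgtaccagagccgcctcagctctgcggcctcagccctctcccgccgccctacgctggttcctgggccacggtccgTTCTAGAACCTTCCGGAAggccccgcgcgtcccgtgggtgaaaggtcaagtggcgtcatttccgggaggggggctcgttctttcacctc

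Levels are given in FPKM, fragments scaled to the length of the transcript and the depth of the library. Since an assembler can split 1 mRNA into several partial transcripts, each gene has 2 values. The first, summed FPKM, adds the FPKM of its transcripts of at least 300 bases. The second, exon-weighted FPKM, weights each FPKM by the bases it shares with the gene's annotated exons and divides by the length of the longest annotated transcript, so that fragments of 1 mRNA are not counted as separate molecules. The exon-weighted value is per length and is the one used to compare genes. Where a pair of whole tumor levels is given, that of Control SMO comes first. Ratios are log2((LFPRLR SMO + 0.1)/(Control SMO + 0.1)), and counts by a factor of 2 use genes at 1 or above in at least 1 library.

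Chaperone mRNAs were among the most abundant of the whole tumor. By exon-weighted FPKM, *Hsp90ab1* (the constitutive cytosolic HSP90) was at 253 under Control SMO and 240 under LFPRLR SMO, and *Hspa8* (the constitutive HSP70, Hsc70) at 214 and 172. Between 99.1% and 99.3% of the genes at 1 or above lay below these values. *Hsp90b1* (GRP94, the HSP90 of the ER) followed at 97.4 under Control SMO and 68.3 under LFPRLR SMO, and *Hsp90aa1* (the inducible HSP90) at 80.2 and 70.2. By exon-weighted FPKM the order of these 4 genes was the same in both libraries except that *Hsp90aa1* was above *Hsp90b1* with LFPRLR SMO. By summed FPKM *Hspa8* was above *Hsp90ab1* in both libraries, at 316 and 253 against 262 and 248. With Control SMO, 58.6% of the longest annotated transcript of *Hspa8* was covered and 96.4% of that of *Hsp90ab1*, so the order of these 2 genes depends on the measure. Among the genes listed in both libraries the lowest levels were those of *Eif2ak3*, at 1.13 and 1.11, and *Hsf1*, at 1.75 and 0.393.

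**Figure D1:**
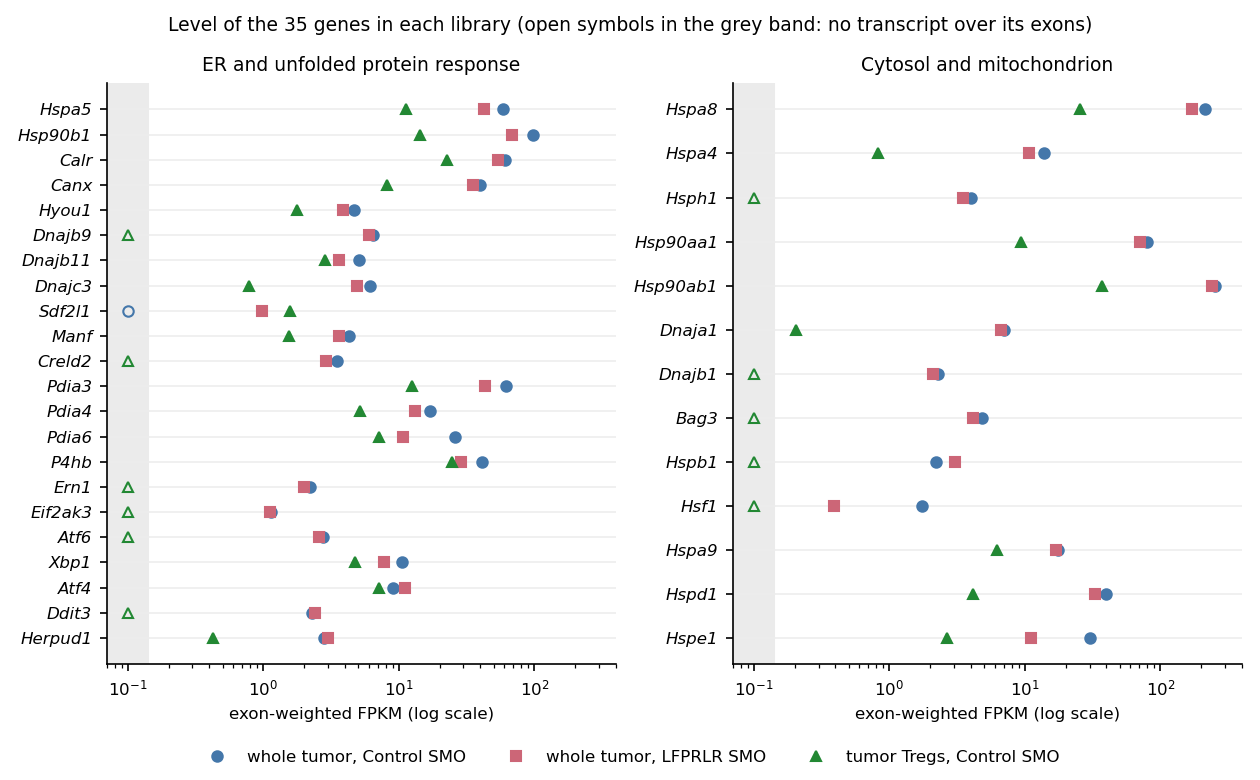
Exon-weighted FPKM (log axis) of each of the 35 genes in the 3 libraries, ER and UPR genes on the left, cytosolic and mitochondrial genes on the right, 1 symbol per library, with open symbols for genes without a transcript of any length over their exons. *Hsp90ab1* and *Hspa8* lie highest, at 253 and 214 with Control SMO, the LFPRLR SMO symbols lie mostly just left of the Control SMO ones, and 11 genes have an open symbol for the library labelled tumor Tregs, 1 fewer than the genes not listed there, as *Herpud1* has a transcript under 300 bases.

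By exon-weighted FPKM both groups were slightly lower in the LFPRLR SMO library, as were genes in general, and the size of the difference depended on the measure. By exon-weighted FPKM the median ratio of the ER genes at 1 or above was −0.25 on the log2 scale, with 18 of 21 below 0. That of the cytosolic and mitochondrial genes was −0.19, with 12 of 13 below 0. In pooled bulk RNA, fewer cells of a type and less RNA per cell cannot be told apart. Across all 8902 genes tested the median was −0.16, with 65.2% below 0, and abundant genes were lower than that. Genes with a mean of 5 to 20 had a median of −0.21, with 76.0% below 0. At 20 to 50 the median was −0.41, with 80.5% below 0, and at 50 or more −0.42, with 78.5% below 0. By exon-weighted FPKM, 0 members were higher by a factor of 2 and 3 were lower (*Pdia6*, *Hsf1* and *Hspe1*), where 5.74% of all genes were higher and 8.53% lower. By summed FPKM, 2 members were higher and 6 lower, where 18.4% of all genes were higher and 16.6% lower. Read against these shares, the counts of lower members were near the background and those of higher members below it. By summed FPKM, however, higher genes were fewer among abundant ones. They were 837 of 4286 genes with a mean of 1 to 5, 33 of 544 at 20 to 50 and 17 of 273 at 50 or more. The low counts of higher members are therefore not read as a trait of the members.

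By summed FPKM the median ratio was −0.33 for the ER genes (16 of 22 below 0), −0.08 for the cytosolic and mitochondrial genes (8 of 13 below 0) and −0.08 for all genes (53.6% below 0). Abundant genes were again lower than all genes. Those with a mean of 5 to 20 had a median of −0.07 (53.5% below 0). At 20 to 50 it was −0.30 (68.2% below 0) and at 50 or more −0.36 (75.5% below 0), near that of the ER genes. With only the most abundant transcript of each gene the medians of the ER and the other group were −0.07 and −0.32. That of the cytosolic and mitochondrial genes was above 0, at 0.07, after scaling both libraries to the same total and at 0.01 after centring on the median gene.

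The measures disagreed for single genes. The summed and the exon-weighted ratio had opposite signs in 8 of the 35 genes and differed by a factor above 1.5 in 9. The LFPRLR SMO library also listed more transcript sequence outside annotated exons. Among the members the median share of FPKM times bases outside exons was 2.31% under Control SMO and 12.0% under LFPRLR SMO, against 0.603% and 3.45% over all genes. The share was higher with LFPRLR SMO in 19 of 34 genes, higher with Control SMO in 10 and 0 in both in 5. An FPKM is averaged over the whole transcript, so bases outside the exons would bring down the exon-weighted value if their depth is low. Their own depth is not known, since each transcript is listed with 1 mean depth. A further measure was therefore added after the values were seen, which counts FPKM times all bases of the assigned transcripts. By it the median ratio was −0.16 for the ER genes and −0.21 for the others, beside −0.15 for all genes.

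**Figure D2:**
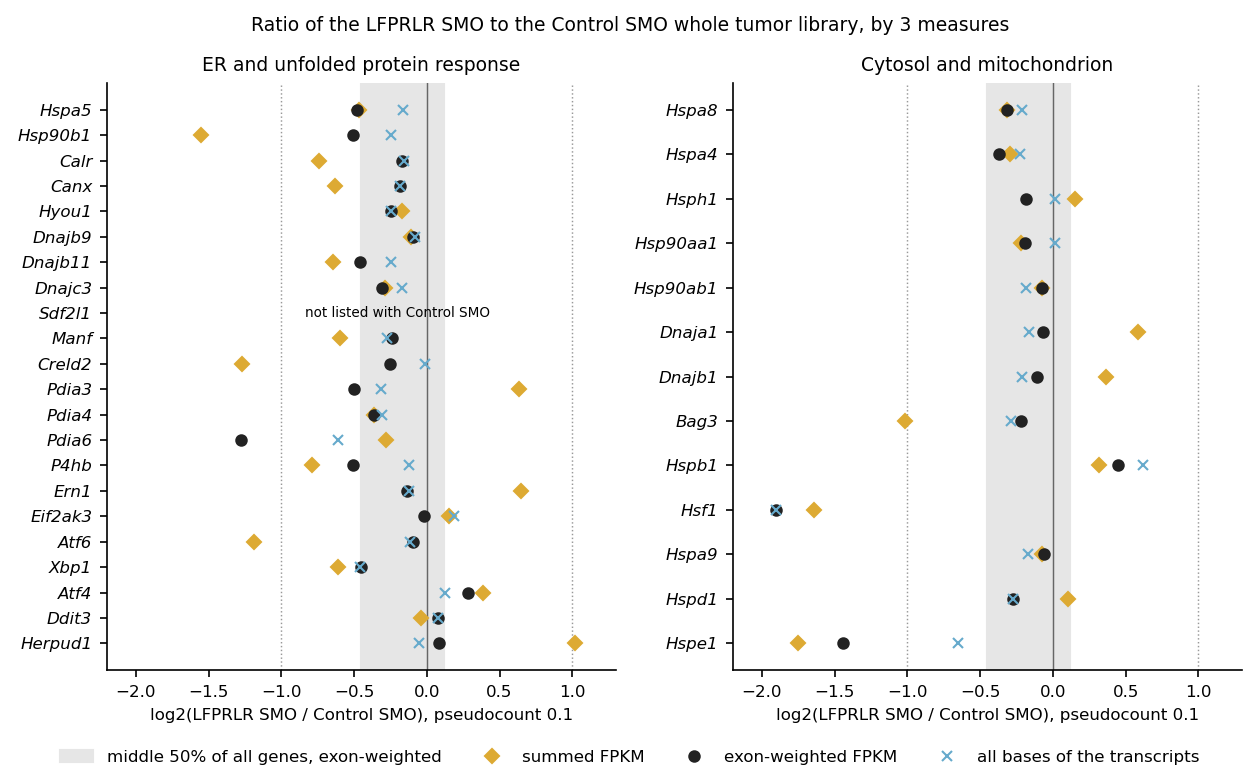
Log2 ratio of LFPRLR SMO to Control SMO for each gene by summed FPKM (diamonds), exon-weighted FPKM (circles) and all transcript bases (crosses), with a pseudocount of 0.1, dotted lines at a factor of 2 and the middle 50% of all genes in grey. Most circles and crosses lie left of 0 inside or near the grey band, and *Hsf1*, *Hspe1* and *Pdia6* have the lowest circles.

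**Figure D3:**
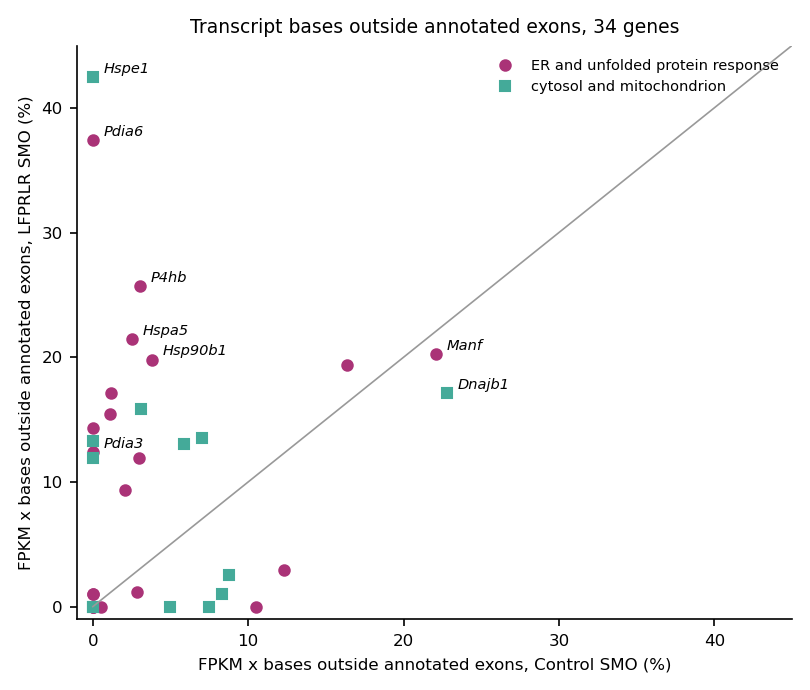
Share of FPKM times bases that lies outside annotated exons, in percent, with Control SMO (horizontal) and LFPRLR SMO (vertical), for the 34 genes listed in both; points above the line have the higher share with LFPRLR SMO. *Hspe1* at 42.5% and *Pdia6* at 37.4% lie highest, and both are at 0 with Control SMO.

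Among the 11 ER chaperones and their partners, levels summed to 287 under Control SMO and 226 under LFPRLR SMO, and 10 of the 11 ratios were below 0. *Hspa5*, the HSP70 of the ER lumen, was at 59.0 exon-weighted FPKM under Control SMO and 42.4 under LFPRLR SMO, a log2 ratio of −0.48. Its assembled transcripts lay outside exons for 2.53% under Control SMO and 21.5% under LFPRLR SMO, and by all transcript bases its log2 ratio was −0.17. The values of *Hsp90b1* depended on the measure. Its summed FPKM was 230 with Control SMO, from 2 partial transcripts of FPKM 127 and 103 that lie side by side along the gene, and 78.6 with LFPRLR SMO, from 1 transcript of 3492 bases. That is a summed log2 ratio of −1.55, whereas the exon-weighted ratio was −0.51 and the ratio by all bases −0.25, so it passed a factor of 2 only by the measure that adds the pieces.

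*Calr* and *Canx*, the soluble and the membrane-bound lectin chaperone of glycoproteins, were nearly level by exon-weighted FPKM but not by summed FPKM. *Calr* stood at 61.0 and 54.3 exon-weighted FPKM and *Canx* at 39.9 and 35.1, with log2 ratios of −0.17 and −0.19. By all transcript bases these ratios were −0.15 and −0.19, and by summed FPKM −0.74 and −0.63. *Calr* was 1 transcript in each library, at FPKM 104 and 62.0. With Control SMO 58.9% of its longest annotated transcript was covered and with LFPRLR SMO 87.5%.

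The co-chaperones of *Hspa5* were listed at 3 to 7 exon-weighted FPKM. *Dnajb9* (ERdj4) was at 6.49 and 6.06, *Dnajb11* (ERdj3) at 5.04 and 3.64, and *Dnajc3* (p58IPK) at 6.08 and 4.90 with Control SMO and LFPRLR SMO. *Hyou1*, an ER member of the HSP110 type that exchanges nucleotide on BiP, was at 4.65 and 3.90. All 4 were lower with LFPRLR SMO, with log2 ratios from −0.46 to −0.10.

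The secreted ER stress proteins *Manf* and *Creld2* were at 4.27 and 3.50 with Control SMO and at 3.61 and 2.92 with LFPRLR SMO. *Creld2* had a summed log2 ratio of −1.27 (7.49 and 3.05), from 2 overlapping transcripts of 985 and 452 bases with Control SMO and 1 of 1577 bases with LFPRLR SMO. With transcripts of at least 500 bases only, that ratio was 0.15, so its direction turned. *Manf* shares exon bases with *Dcaf1* on the opposite strand and *Rbm15b* on its own, and reads there cannot be told apart. *Sdf2l1*, a BiP-associated ER protein, was not listed with Control SMO and had an exon-weighted FPKM of 0.973 with LFPRLR SMO. Its call as higher by summed FPKM (1.32) rests on 1 transcript of 1053 bases at a mean depth of 2.39 and on the pseudocount.

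The 4 protein disulfide isomerases, which form and reshuffle disulfide bonds in the ER, were all lower in the LFPRLR SMO library, with levels summing to 146 under Control SMO and 96.2 under LFPRLR SMO. *P4hb* (PDI) was at 40.8 and 28.7 exon-weighted FPKM. *Pdia3* (ERp57, the partner of *Calr* and *Canx*) was at 61.8 and 43.6 and *Pdia4* (ERp72) at 17.1 and 13.2. Their log2 ratios were −0.51, −0.50 and −0.36, and by all transcript bases −0.13, −0.31 and −0.31. By summed FPKM *Pdia3* went the opposite way, 94.0 under Control SMO and 146 under LFPRLR SMO, since the LFPRLR SMO library lists it in 2 pieces of FPKM 58.6 and 87.3.

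*Pdia6* (P5) was the ER gene with the lowest exon-weighted ratio, at 26.1 under Control SMO and 10.7 under LFPRLR SMO, 2.44 times lower. With Control SMO it was 1 transcript of 1599 bases at a mean depth of 66.8, with all of its bases inside annotated exons. With LFPRLR SMO it was 2 transcripts with depths of 27.3 and 22.8, and the longer one ran 866 bases outside the exons, upstream of an internal exon. By all transcript bases its ratio was −0.61 on the log2 scale, 1.53 times lower, and by summed FPKM, at 35.5 and 29.1, it was 1.22 times lower, so it passed a factor of 2 only by exon-weighted FPKM. By all transcript bases too it had the lowest ratio of the ER group.

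**Figure D4:**
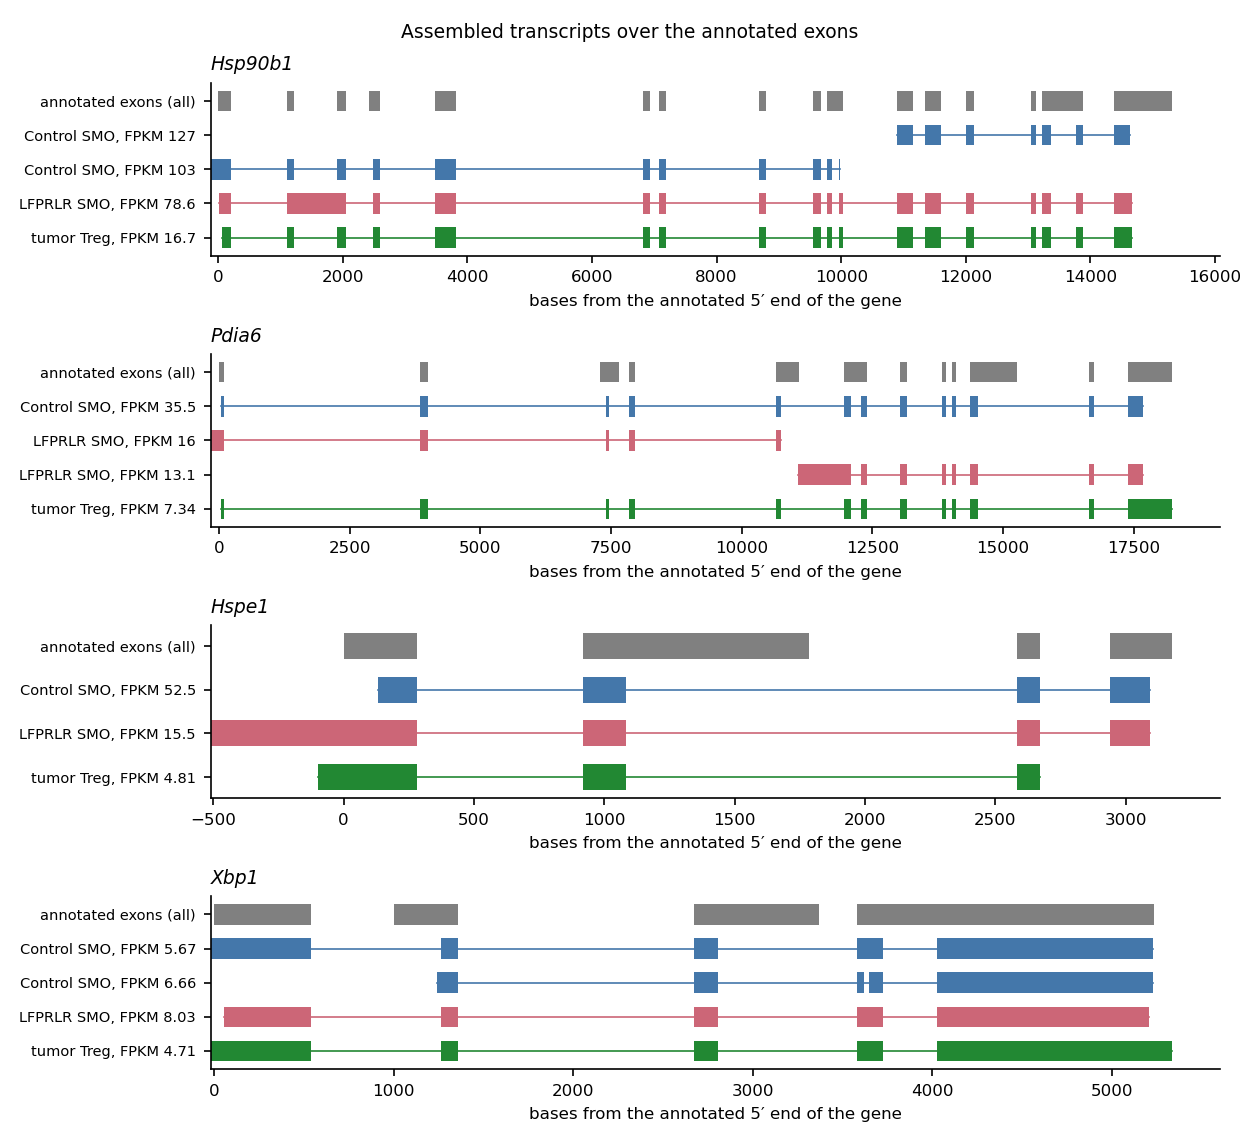
Assembled transcripts of *Hsp90b1*, *Pdia6*, *Hspe1* and *Xbp1* in each library (bars for exons, thin lines for gaps) under the union of annotated exons in grey, in bases from the annotated 5′ end of the gene, with the FPKM of each transcript. *Hsp90b1* is in 2 pieces with Control SMO and *Pdia6* in 2 pieces with LFPRLR SMO, the *Hspe1* transcript with LFPRLR SMO begins 510 bases before the gene, and 1 *Xbp1* transcript with Control SMO has a short gap.

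By exon-weighted FPKM the sensors of the UPR were listed at low and similar levels in both whole tumor libraries. *Ern1* was at 2.21 exon-weighted FPKM under Control SMO and 2.0 under LFPRLR SMO, *Eif2ak3* at 1.13 and 1.11, and *Atf6* at 2.77 and 2.59. Their log2 ratios lay from −0.14 to −0.02. By summed FPKM *Ern1* went the opposite way, at 8.03 and 12.7 (0.65), and *Eif2ak3* too, at 5.88 and 6.53 (0.15). *Atf6* passed a factor of 2 by summed FPKM only, at 6.24 and 2.69, as the Control SMO library lists it in 2 pieces whose FPKM add up and the LFPRLR SMO library mainly as 1 transcript of 7237 bases.

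Of the 4 transcription factors and targets downstream of the sensors, 3 were higher with LFPRLR SMO by exon-weighted FPKM, each by less than a factor of 1.5. *Atf4*, translated when PERK is active, was at 9.03 under Control SMO and 11.01 under LFPRLR SMO, a log2 ratio of 0.28. *Ddit3* (CHOP), a target of ATF4, was at 2.27 and 2.41, and *Herpud1*, which takes part in ER-associated degradation, at 2.81 and 2.98. The higher summed FPKM of *Herpud1*, 2.93 and 6.05, adds 2 transcripts that do not overlap with LFPRLR SMO against 1 of 2131 bases with Control SMO. By summed FPKM *Ddit3* was slightly lower, at 3.32 and 3.23, and by all transcript bases *Herpud1* had a log2 ratio of −0.06, so that of these genes *Atf4* was the one higher by all 3 measures. Exons of *Ddit3* overlap those of *Mars* on the opposite strand by 68 bases. They also share 105 bases with a second annotated entry named *Ddit3* on the same strand. That entry was at 1.99 and 1.94 exon-weighted FPKM, so slightly lower with LFPRLR SMO.

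*Xbp1*, the substrate of IRE1, was at 10.6 exon-weighted FPKM under Control SMO and 7.72 under LFPRLR SMO, a log2 ratio of −0.45 and of −0.46 by all transcript bases. The Control SMO library listed 2 *Xbp1* transcripts. One was continuous through the fourth exon drawn (FPKM 5.67, mean depth 10.5) and the other lacked 26 bases there (FPKM 6.66, mean depth 12.3), which was 54.0% of the gene's FPKM. The gap is at chr11:5524282-5524307 (GRCm38, plus strand), is no annotated intron, and leaves a remainder of 2 when divided by 3, so it shifts the reading frame. The sequence is shown because it is the stretch on which the UPR acts, with the 26 bases of the gap in capitals and 30 bases on each side.
Xbp1, chr11:5524252-5524337: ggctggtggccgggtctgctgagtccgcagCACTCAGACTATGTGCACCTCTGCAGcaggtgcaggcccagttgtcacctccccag
The same letters border the gap on both sides, so that it could be placed up to 4 bases to the left or 2 to the right and leave the same spliced sequence. A gap of this length at this place is what IRE1 is known to remove. The LFPRLR SMO library listed 1 *Xbp1* transcript, continuous over these bases, at FPKM 8.03 and a mean depth of 13.7. The library labelled tumor Tregs listed a continuous one at FPKM 4.71. Gaps under 50 bases numbered 6 of 84025 with Control SMO and 6 of 76812 with LFPRLR SMO, and *Xbp1* held the only one of 26 bases. An assembler lists a form only where it models enough reads for it, and the reads were not analysed here, so that the form with the gap is not shown to be absent with LFPRLR SMO.

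In the cytosol, levels of the 3 HSP70 and HSP110 genes summed to 232 under Control SMO and 186 under LFPRLR SMO. *Hspa8* was lower by 0.32 on the log2 scale, the same by summed FPKM (316 and 253), as the single transcript of each library shares the same 2142 exon bases with the gene. *Hspa4* (Apg-2, an HSP110) was at 13.9 and 10.7 and *Hsph1* (HSP105) at 3.99 and 3.49, where the summed FPKM of *Hsph1* was higher with LFPRLR SMO, at 10.1 and 11.3. *Hspa8* has near-identical copies elsewhere in the genome, 10 of them annotated as pseudogenes, so its reads may be shared with them. In all, 9 members have such copies. The same limit thus applies to *Calr*, *Dnajb9*, *Hsp90aa1*, *Hsp90ab1*, *Dnaja1*, *Hspb1*, *Hspa9* and *Hspd1*.

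The HSP90 genes were nearly level. *Hsp90ab1* had a log2 ratio of −0.08 and *Hsp90aa1* of −0.19, each with 1 transcript per library. By all transcript bases these were −0.19 and 0.01, so their order depends on the measure and the sign for *Hsp90aa1* too. *Dnaja1*, an HSP40 that delivers substrates to HSP70, was at 6.98 and 6.65 and *Dnajb1* (Hsp40) at 2.28 and 2.11. By summed FPKM both went the opposite way, *Dnaja1* at 34.1 and 51.1 (0.58) and *Dnajb1* at 3.04 and 3.94 (0.36). *Dnaja1* overlaps *Smu1* on the opposite strand by 608 exon bases. *Bag3*, a nucleotide exchange factor of HSP70, was at 4.84 and 4.15. Its summed FPKM of 8.82 and 4.31 passed a factor of 2, with 2 transcripts under Control SMO and 1 under LFPRLR SMO, and its summed log2 ratio of −1.02 was −0.93 after centring on the median gene, which does not pass.

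*Hspb1* (HSP25), a small heat shock protein, was the cytosolic gene with the highest exon-weighted ratio, 2.20 under Control SMO and 3.02 under LFPRLR SMO, a log2 ratio of 0.44 exon-weighted, 0.32 by summed FPKM and 0.62 by all bases. *Hsf1*, the heat shock factor, had the lowest exon-weighted ratio of all 35 genes, while by summed FPKM *Hspe1* (−1.75) was lower. *Hsf1* was at 1.75 with Control SMO, from 3 transcripts at depths of 1.75 to 5.65. With LFPRLR SMO it was at 0.393, from 1 transcript of 719 bases at a depth of 2.70 that covers part of the gene. The log2 ratio was −1.90, and −1.64 by summed FPKM, but with the pseudocount raised to 1 it was −0.98 exon-weighted and with the most abundant transcript only −0.82 by summed FPKM. At these depths an assembler may miss part of a transcript, so the value is not a firm one.

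Of the mitochondrial chaperones, *Hspa9* (mortalin) was at 17.6 under Control SMO and 16.8 under LFPRLR SMO, and *Hspd1* (HSP60) at 39.6 and 32.7, with 41.1 and 44.3 by summed FPKM. *Hspe1* (HSP10), the lid of the HSP60 chamber, was at 30.3 and 11.1, 2.73 times lower, and at 52.5 and 15.5 by summed FPKM. With LFPRLR SMO its single transcript of 1201 bases began 510 bases upstream of the annotated gene, so that it covers the upstream sequence printed above, and 465 of its bases lay in exons of *Hspd1*, which is read from the same promoter in the other direction. With Control SMO its transcript of 557 bases lay wholly in its exons. By all transcript bases the ratio was −0.65 on the log2 scale, 1.57 times lower, which does not pass a factor of 2. That measure counts the upstream bases and those in *Hspd1* exons as *Hspe1*, and the Control SMO transcript has none. *Hspd1* and *Hspe1*, whose proteins work as 1 complex, thus had log2 ratios of −0.27 and −0.65 by all transcript bases. By exon-weighted FPKM their ratios were −0.27 and −1.44, and by summed FPKM 0.11 and −1.75.

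Among the 9 members with exactly 1 transcript in both whole tumor libraries, 8 had a summed ratio below 0 and the median was −0.29, while among the 2530 such genes in all 68.4% were below 0 and the median was −0.22. The total FPKM over transcripts of at least 300 bases was 544097 under Control SMO and 490665 under LFPRLR SMO, and scaling both to the same total adds 0.15 to every log2 ratio. The median gene at 1 or above in both libraries lay at −0.15 exon-weighted and −0.09 by summed FPKM. After centring on it, the exon-weighted ratio of *Hspa5* was −0.32, of *Hsp90b1* −0.36, of *Hspa8* −0.16 and of *Hsp90ab1* 0.08. The direction thus flips with the scaling for *Hsp90ab1*, and also for *Dnajb9*, *Ern1*, *Eif2ak3*, *Atf6*, *Dnaja1*, *Dnajb1* and *Hspa9*. The centred exon-weighted medians were −0.09 for the 22 ER genes and −0.04 for the 13 others.

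In the library labelled tumor Tregs, which another program quantified and which is only set beside the whole tumor, the order of the effectors was partly the same. *Hsp90ab1* was highest at 37.1 exon-weighted FPKM, followed by *Hspa8* at 25.5, *P4hb* at 24.9 and *Calr* at 22.6. *Hsp90b1* stood at 14.3, *Pdia3* at 12.6 and *Hspa5* at 11.3. The other listed genes lay between 0.204 (*Dnaja1*) and 9.41 (*Hsp90aa1*), among them *Canx* at 8.21, *Pdia6* at 7.17, *Hspa9* at 6.25, *Pdia4* at 5.17, *Hspd1* at 4.17, *Hspe1* at 2.68 and *Sdf2l1* at 1.57. *Hspa8* is uncertain there, as a transcript of FPKM 21.2 was assigned to its copy *Gm26825*. The 3 sensors, *Ddit3* and *Hsf1* were not listed, nor were *Dnajb9*, *Creld2*, *Hsph1*, *Dnajb1*, *Bag3* and *Hspb1*, while *Atf4* was at 7.08 and *Xbp1* at 4.71. *Herpud1* had only a transcript of 247 bases, below the length that counts as listed. A gene that is not listed there may still be expressed, since this file holds 4838 transcripts beside 22481 and 31908 in whole tumor.

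The wider folding network was described by 7 lists, the genes of which did not include the members. The ER-associated degradation list had a median exon-weighted log2 ratio of −0.26 (12 of 17 below 0) and the translocation and glycosylation list −0.18 (23 of 26 below 0), with 0 genes past a factor of 2 in either, where 5.74% of all genes were higher and 8.53% lower. By summed FPKM these medians were 0.01 and −0.19, with 1 higher and 2 lower of 18 genes of the first list and 0 higher and 4 lower of 27 of the second, where 18.4% of all genes were higher and 16.6% lower. *Vcp*, the ATPase that pulls proteins out of the ER membrane, was at 20.9 under Control SMO and 17.0 under LFPRLR SMO. *Derl1* was at 5.84 and 4.23, *Os9* at 7.68 and 4.79, and *Selenos* at 7.41 and 7.64. *Ssr3*, a subunit of the translocon-associated complex, was at 38.5 and 40.7, and *Srpr*, the receptor of the signal recognition particle, at 17.9 and 12.1. *Sec61g*, a subunit of the translocon, had 6.00 and 3.28, and *Ganab*, a glucosidase that trims glycans, 7.25 and 4.80.

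Other ER folding factors had an exon-weighted median of −0.25, with 4 of 23 lower and 1 higher by a factor of 2. By summed FPKM it was −0.42, with 5 of 25 lower and 3 higher. Of all genes, 5.74% were higher and 8.53% lower exon-weighted, and 18.4% and 16.6% by summed FPKM. *Serpinh1* (HSP47), the collagen chaperone, was at 29.6 and 24.0 and *Tmed2*, a cargo receptor, at 29.8 and 25.1. *Erp44*, which retains proteins in the early secretory pathway, was at 6.05 and 2.89, and *Sdf2*, a relative of *Sdf2l1*, was at 6.46 with Control SMO and not listed with LFPRLR SMO. Targets of the eIF2alpha kinase branch also had an exon-weighted median of −0.25, with 1 of 19 lower by a factor of 2. That gene was *Ddit4*, an inhibitor of mTORC1, at 13.5 and 6.46. By summed FPKM the median of these targets was −0.23, with 2 of 21 higher and 2 lower. *Cebpb* was at 8.63 and 9.86, and *Shmt2* at 5.18 and 3.15.

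The TRiC chaperonin and prefoldin, which fold actin and tubulin, had the lowest exon-weighted median of the 7 lists, −0.49, with 12 of 14 genes below 0 and 3 lower by a factor of 2. *Cct6a* was at 103 and 42.0, *Cct5* at 48.1 and 35.6 and *Pfdn5* at 29.8 and 14.6. The values of *Cct6a* and *Pfdn5* include transcripts under 300 bases, for *Cct6a* one of 145 bases at FPKM 1312 under Control SMO and one of 146 bases at FPKM 284 under LFPRLR SMO, where the small RNA *Snora15* lies within the gene. By summed FPKM, which leaves such transcripts out, *Cct6a* was at 79.4 and 75.9, *Pfdn5* went the opposite way at 12.7 and 43.5, and the median of the list was −0.35, above the −0.42 of the other ER folding factors. The other HSP70, HSP40 and HSP90 partners and small heat shock proteins had an exon-weighted median of −0.28, with 2 of 36 genes higher and 2 lower by a factor of 2. By summed FPKM it was −0.09, with 5 of 39 higher and 8 lower. In this list *Hspa1b*, the stress-inducible HSP70, was higher with LFPRLR SMO, at 6.33 and 13.0 exon-weighted and 6.35 and 13.3 by summed FPKM. *Dnajc8* was at 11.2 and 4.61, and the HSP90 co-chaperones *Stip1* and *Ptges3* at 19.0 and 10.8 and at 33.6 and 23.3. *Hspa1b* has a near-identical neighbour in *Hspa1a*, so its reads may be split between both. The mitochondrial folding and proteolysis list had an exon-weighted median of −0.05, with 2 of 14 lower, among them neither *Trap1* (6.32 and 3.51) nor *Yme1l1* (10.2 and 10.1). By summed FPKM its median was above 0, at 0.02, with 3 of 14 higher and 5 lower. The shares of all genes for these counts are those given above for each measure. The other genes past a factor of 2 by exon-weighted FPKM in these lists were named after their values were seen. They were *Erp29*, *Fkbp11*, *Pfdn2*, *Hspb6*, *Grpel2* and *Clpp*, which were lower with LFPRLR SMO, and *Pdia5* and *Dnajc5*, which were higher.

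**Figure D5:**
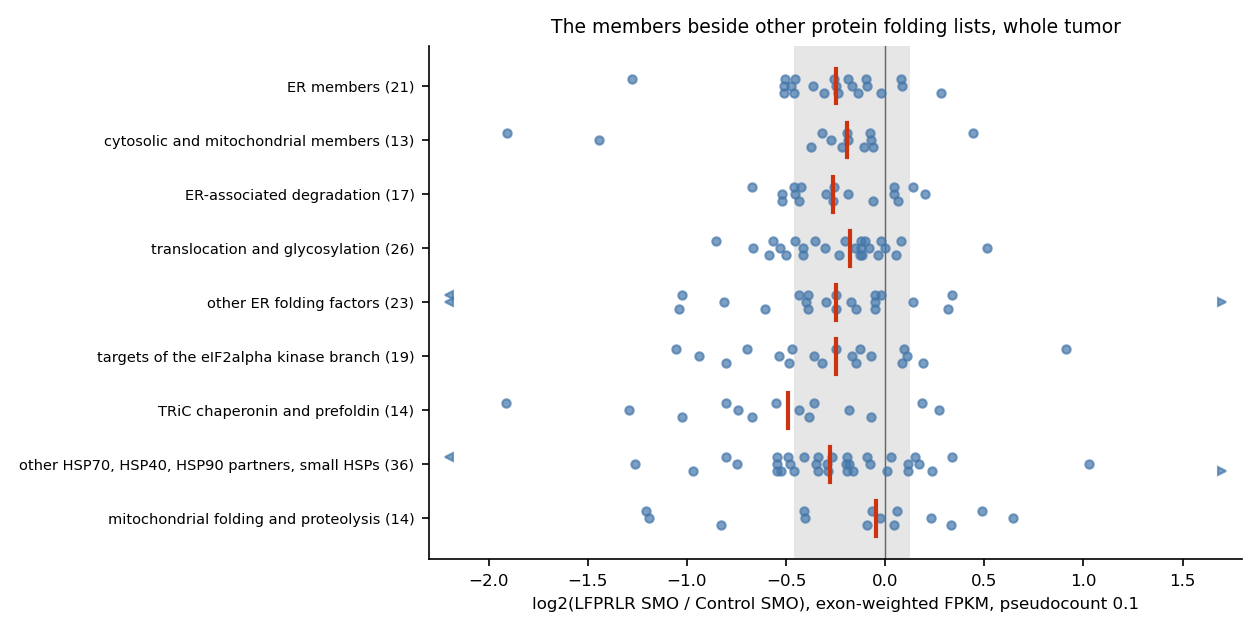
Log2 ratios by exon-weighted FPKM of the members and of the 7 other folding lists (1 point per gene at 1 or above in a library, red bars for medians, number of genes in brackets, triangles for values beyond the axis), with the middle 50% of all genes in grey. All medians lie below 0, from −0.49 for TRiC and prefoldin to −0.05 for the mitochondrial list.

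Markers of cell types differed between the same whole tumor libraries. Exon-weighted levels of the 12 monocyte and macrophage markers summed to 492 under Control SMO and 320 under LFPRLR SMO, with 12 of 12 ratios below 0 and a median log2 ratio of −0.59. The 10 epithelial markers of the 4T1 cells summed to 284 and 250, the 9 listed of 10 fibroblast markers to 201 and 231, the 6 listed of 8 endothelial markers to 23.9 and 21.7, and the neutrophil markers to 30.3 and 34.2. Of the plasma cell markers, cells rich in ER, the sums were 18.0 and 17.0, with *Jchain*, *Mzb1*, *Tnfrsf17* and *Irf4* not listed in any library. The part of these cell types in the members' ratios was not tested.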

How the data were processed

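Whole tumor and tumor Treg RNA of day 12 was rRNA-depleted and sequenced by the study, with RNA of 6 mice pooled per library. The members and all gene lists were chosen with earlier results of these data known. For whole tumor the authors assembled transcripts with Cufflinks on mm10, and deposited an FPKM and a depth per transcript. For tumor Tregs the authors deposited FPKM from StringTie 1.2.3, per the file headers. These values, held in a text column with other attributes and therefore checked here as unit other, are not counts, and the 2 kinds of library were normalized separately. The submitters' processing notes also name HISAT2 2.0.4 and Cuffdiff 2.0.2. The version of Cufflinks, read counts and read length are not given in the sources used here, so no interval could be given. Mean depth was 1.88 per FPKM with Control SMO, 1.75 with LFPRLR SMO and 0.947 in the library labelled tumor Tregs, and the lowest listed FPKM of whole tumor transcripts of at least 300 bases was 0.211 and 0.247, so that a gene not listed is below about these levels or was not assembled.

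From these files, transcripts were assigned to GENCODE M21 genes (GRCm38, the same assembly as mm10) by a shared intron on the same strand, or by at least 50% of exon bases where no intron was shared. Treg transcripts that carry a symbol kept it, after 80 older symbols were renamed. No gene was found for 17.0% (Control SMO) and 36.6% (LFPRLR SMO) of whole tumor transcripts. Named genes were all 35 members, and in each other list the 2 with the highest mean and the 2 with the largest ratio among genes at 5 or above. Alternatives were pseudocounts of 0.01 and 1, a minimum of 5 or none, a factor of 3, transcripts of at least 500 bases, the most abundant transcript only, other scalings, and the count of all transcript bases, which was chosen after seeing the data. Near-identical copies were sequences of other genes with at least 90% identity over 300 bases. The counting was tested on data made with known ratios. Values were computed with Python 3.11.15 and numpy 2.4.6, and figures with matplotlib 3.10.9.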

Additional observations from a re-analysis of the deposited data

How the results depend on the processing

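No paired analysis was possible because there is 1 library per treatment, which also means that no replicate could be left out. With all bases of the assigned transcripts in place of exon bases, chosen after seeing the data, 1 member was higher by a factor of 2 (*Sdf2l1*, not listed with Control SMO). Only 1 (*Hsf1*) was lower, where exon weighting gave 0 higher and 3 lower. Of all 8456 genes tested by all bases, 429 were higher and 688 lower. The log2 ratios of *Pdia6* and *Hspe1* by all bases were −0.61 and −0.65. With no minimum value 1 member (*Sdf2l1*) was higher by exon-weighted FPKM, and with a factor of 3 only 1 (*Hsf1*) was lower. By summed FPKM, 2 members were higher and 6 lower. The number higher was 1 with a pseudocount of 1, with the most abundant transcript only, with members listed in both libraries only, with a factor of 3 and with a minimum of 5. The number lower was 2 with the most abundant transcript only and with a factor of 3. Fewer genes or transcripts enter under some of these settings by construction. The percentages of all genes given above belong to the main settings and are no background for these altered counts. *Creld2* turned from −1.27 to 0.15 on the log2 scale with transcripts of at least 500 bases, since its 452-base transcript is then left out. With the most abundant transcript only, the summed log2 ratios of *Hsp90b1* (−0.69), *Creld2* (−0.63), *Atf6* (−0.63), *Bag3* (−0.48), *Hsf1* (−0.82) and *Herpud1* (0.37) were all within a factor of 2. The median of the cytosolic and mitochondrial genes by summed FPKM, −0.08, was 0.07 after scaling to the same total and 0.01 after centring. The other group medians stayed below 0 under every setting tried, from −0.36 to −0.07 for the ER genes by summed FPKM. With pools of 1 library per treatment, neither depth nor any setting gives an error for a ratio.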
